A study of Mus musculus with 6 samples.

Results

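Syndecans and glypicans are the families of cell-surface proteins that carry heparan sulfate chains, and their RNA was compared between sorted mouse breast cancer cells. The members were the 4 syndecan genes Sdc1 to Sdc4 and the 6 glypican genes Gpc1 to Gpc6, read by every probe set whose only gene symbol in the array's annotation was one of theirs. This gave 24 of 45037 probe sets, 13 for syndecans and 11 for glypicans, and 10 of the 18193 genes with a probe set of their own. A probe set that the annotation gave to Gpc2 together with a second gene was not used. The members were set by gene family, although earlier results of these data were known when they were chosen.

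The first group of cells carried both surface proteins CD24 and CD29 (CD24+CD29+, 3 arrays) and were set against cells that lacked both (CD24-CD29-, 3 arrays). Both groups were sorted from cultured mouse breast cancer cells, grown in DMEM with serum, which the labels call breast cancer stem cells. Neither group has a genetic change or drug in its labels, and no source used here gives the strain, the cell line or whether the replicates were separate cultures. What the p-values measure is thus only the spread among these 6 samples, and technical variation may enter it. Values were deposited RMA values on the log2 scale, from Affymetrix Mouse430_2 arrays. Differences are CD24+CD29+ minus CD24-CD29-, with the standard error (SE) of a limma fit over all 45037 probe sets and p-values adjusted by the Benjamini-Hochberg method at a threshold of 0.05.

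A syndecan spans the membrane, carries its chains on the outer part and ends in a short inner tail that binds adaptor proteins and links to the actin cytoskeleton. A glypican has no inner tail and is held to the outer face of the membrane by a lipid anchor. The sulfated chains of both bind growth factors, Wnt and Hedgehog proteins, chemokines and matrix proteins, and so act as co-receptors. Sdc1 is the main syndecan of epithelia, and mice that lack it are resistant to mammary tumours driven by Wnt1.

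The promoter windows of Sdc1, Sdc4 and Gpc4 are shown because Sdc1 was higher while Sdc4, on one of its probe sets, and Gpc4 were lower in CD24+CD29+ cells. Each runs from 250 bases before to 50 bases after the RefSeq gene start in the assembly GRCm38.p6, and capitals mark matches to the motifs searched.
Sdc1 (chr12:8771146-8771445, plus strand): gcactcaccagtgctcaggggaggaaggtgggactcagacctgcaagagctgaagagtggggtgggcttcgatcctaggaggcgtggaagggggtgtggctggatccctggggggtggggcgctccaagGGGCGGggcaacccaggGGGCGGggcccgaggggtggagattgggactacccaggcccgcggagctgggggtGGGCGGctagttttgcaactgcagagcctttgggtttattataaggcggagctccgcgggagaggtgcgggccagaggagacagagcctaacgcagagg
Sdc4 (chr2:164443139-164443438, minus strand): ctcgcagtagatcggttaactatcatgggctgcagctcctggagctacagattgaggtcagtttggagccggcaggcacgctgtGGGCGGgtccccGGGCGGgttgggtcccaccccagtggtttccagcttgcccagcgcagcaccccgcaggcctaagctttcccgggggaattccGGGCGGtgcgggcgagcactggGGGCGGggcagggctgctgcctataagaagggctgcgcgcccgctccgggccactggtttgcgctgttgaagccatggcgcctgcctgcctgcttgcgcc
Gpc4 (chrX:52164874-52165173, minus strand): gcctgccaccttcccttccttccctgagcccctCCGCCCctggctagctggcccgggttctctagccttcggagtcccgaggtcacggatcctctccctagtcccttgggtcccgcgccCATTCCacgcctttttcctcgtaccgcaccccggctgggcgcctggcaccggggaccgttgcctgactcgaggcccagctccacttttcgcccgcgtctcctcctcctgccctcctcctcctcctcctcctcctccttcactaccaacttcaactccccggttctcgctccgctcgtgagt
The motifs were the GC box (GGGCGG), the TATA box (TATAAA), the E-box (CACGTG), the AP-1 motif (TGANTCA) and the TEAD motif (GGAATG), on both strands. The Sdc1 window held 3 GC boxes, the Sdc4 window 4 and the Gpc4 window 1, and the Gpc4 window also held 1 TEAD motif on the opposite strand. RefSeq windows were matched for 7 members, with those of Gpc2, Gpc3, Gpc5 and Sdc3 beside these 3. Each of the 7 held at least 1 GC box, against 35.9% of 27025 promoter windows. Their GC content ran from 54.7% to 77.7%, against a median of 52.7% over all windows. The only exact match to TATAAA was in the Gpc5 window, at -185 from the gene start (14.2% of all windows hold one). Variant forms of the TATA box were not searched, so the other windows cannot be said to lack one. The TEAD motif is in 14.6% of all windows, and no E-box (7.24%) or AP-1 motif (7.93%) was found among the 7. The GC box thus stood in the windows of members that rose, fell or did not pass alike.

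Both families were split. Sdc1 and Gpc6 were higher in CD24+CD29+ cells on several bright probe sets, by up to 2.19-fold and 3.65-fold, and Gpc3 and Gpc4 were lower by 1.26-fold to 1.5-fold. Sdc4 was 2.45-fold lower on one probe set and equal on a far brighter one. Of the 24 member probe sets, 10 rose, 6 fell and 8 did not pass the threshold. Over all probe sets 29.2% rose and 34.8% fell, so 63.9% passed, and the member count of 16 is near that share. The groups did not overlap for 16 of the 24, against 68.2% of all probe sets. A difference that passed and was at least 2-fold was found for 5 member probe sets, against 3.43% of all, of Sdc1, Sdc4 and Gpc6. The median difference was 0.11 over the 24 and -0.05 over all probe sets. All directions are relative to the other genes of an array. Under an alternative scaling to the added poly-A control RNAs (poly-A scaling), every rise remained and every fall but that of Sdc4 turned positive.

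**Figure D1:**
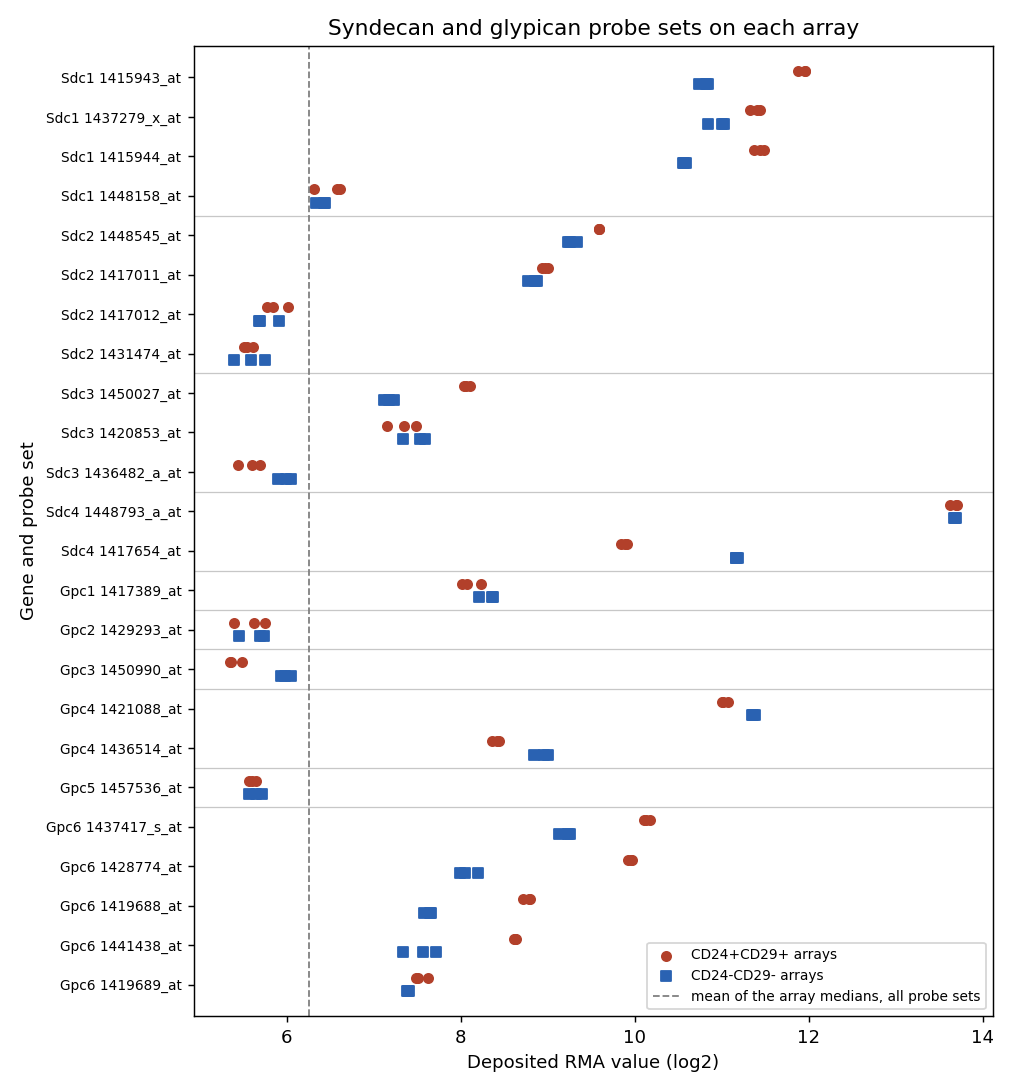
Deposited log2 value (horizontal axis) of each syndecan and glypican probe set (rows, grouped by gene) on every array. Circles are the 3 CD24+CD29+ arrays and squares the 3 CD24-CD29- arrays, and the dashed line is the mean of the array medians. The groups stand apart for 16 of the 24 probe sets, and the Sdc4 probe sets lie at opposite ends of the pattern, one with the groups on top of each other near 13.7 and one with them apart.

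Sdc1 was higher in CD24+CD29+ cells. Its brightest probe set, 1415943_at, stood at 11.96, 11.88 and 11.96 on the CD24+CD29+ arrays, against 10.84, 10.74 and 10.82 on the CD24-CD29- arrays. All 3 CD24+CD29+ arrays lay above all 3 CD24-CD29- arrays, and the 2.19-fold difference (log2 1.13, SE 0.05, adjusted p = 8.6e-07) was far larger than the spread within either group. The probe set 1415944_at gave 11.44, 11.37 and 11.49 against 10.59, 10.55 and 10.56 on CD24-CD29- arrays, a difference of 0.86 (SE 0.05). The probe set 1437279_x_at, of a type that can cross-hybridise, gave 0.43 (SE 0.06, adjusted p = 0.00047), again with no overlap. The dimmer 1448158_at, at 6.50 ± 0.16 in CD24+CD29+ cells and 6.41 ± 0.06 in CD24-CD29- cells (SD, n = 3 each), did not pass (0.09, 95% confidence interval -0.09 to 0.28). The mean of the 4 probe sets differed by 0.63 (adjusted p = 3.4e-06). The sizes read from the probe sets of Sdc1 therefore ranged widely while those that passed shared a direction, which no scaling tried turned round.

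Sdc2, the syndecan typical of mesenchymal cells, differed little. Its brightest probe set, 1448545_at, stood at 9.59 on all CD24+CD29+ arrays, against 9.23, 9.34 and 9.26 on CD24-CD29- arrays. This difference of 0.31 (SE 0.05, adjusted p = 0.00075) passed, but it shrank to 0.13 after quantile normalization and 0.12 after cyclic loess, with adjusted p of 0.054 and 0.072. The other probe sets gave 0.13, 0.12 and -0.03 and did not pass, and the first of these, 1417011_at, had no overlap between groups. The calls of 1417011_at and 1417012_at depended on the settings. With its deposited values 1417011_at passed with an intensity trend (adjusted p = 0.030) and without the dimmest 40% of probe sets (adjusted p = 0.033). After quantile normalization and cyclic loess 1417011_at was at -0.076 and -0.079, while after median centring it passed as higher (0.19, adjusted p = 0.015). The probe set 1417012_at passed as higher after quantile normalization (0.24, adjusted p = 0.047) and cyclic loess (0.25, adjusted p = 0.046).

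Sdc3, best known from the nervous system, gave probe sets that disagreed. The probe set 1450027_at stood at 8.04, 8.10 and 8.06 in CD24+CD29+ cells, against 7.17, 7.12 and 7.23 in CD24-CD29- cells (log2 0.89, SE 0.05, adjusted p = 2.3e-06, 1.86-fold). In contrast, 1436482_a_at was lower, at 5.58 ± 0.13 in CD24+CD29+ cells against 5.98 ± 0.07 in CD24-CD29- cells (SD, n = 3 each; -0.40, SE 0.08), with both groups below the median of all probe sets. The remaining one, 1420853_at, at -0.16 (95% confidence interval -0.37 to 0.06), did not pass, but it passed as lower after quantile normalization (-0.31, adjusted p = 0.040) and cyclic loess (-0.30, adjusted p = 0.043). The mean of the 3 probe sets differed by 0.11 (adjusted p = 0.13), so the higher level of Sdc3 rests on a single probe set. Which transcript regions these probe sets read was not analysed here.

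Sdc4 is the syndecan of focal adhesions, where its tail recruits protein kinase C alpha. Its probe set 1417654_at stood at 9.91, 9.84 and 9.89 in CD24+CD29+ cells, against 11.16, 11.16 and 11.19 in CD24-CD29- cells. The groups lay far apart, with a difference of -1.29 (SE 0.05, adjusted p = 2.9e-07), the largest fall among the members and larger than in 95% of probe sets of that level. The other, 1448793_a_at, stood at 13.63, 13.69 and 13.70 in CD24+CD29+ cells, against 13.68, 13.69 and 13.67 in CD24-CD29- cells. The groups overlapped, and the difference was -0.01 (95% confidence interval -0.12 to 0.10). This probe set was brighter than 99.7% of all probe sets. Of the 239 probe sets with a mean of 13 to 14, 58.6% passed and 2.93% differed by at least 2-fold. Their median size was 0.17, against 0.31 for those of 10 to 11. The part of the high signal in the equal values was not tested. The mean of both Sdc4 probe sets differed by -0.65 (adjusted p = 1.9e-06).

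The Sdc1 and Sdc4 values were also set against each other within each array, where a shift of the whole array cancels. The Sdc1 value of 1415943_at minus the Sdc4 value of 1417654_at was 2.05, 2.04 and 2.07 on CD24+CD29+ arrays, against -0.32, -0.42 and -0.37 on CD24-CD29- arrays. The gap differed by 2.42 between the groups, or 2.47 after quantile normalization, with no overlap as deposited, and only this change is meaningful, since the level of one probe set cannot be compared with that of another. The pair was chosen after its values were seen, so no test is given. The same gap within Sdc4, between its own 2 probe sets, differed by 1.28.

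**Figure D2:**
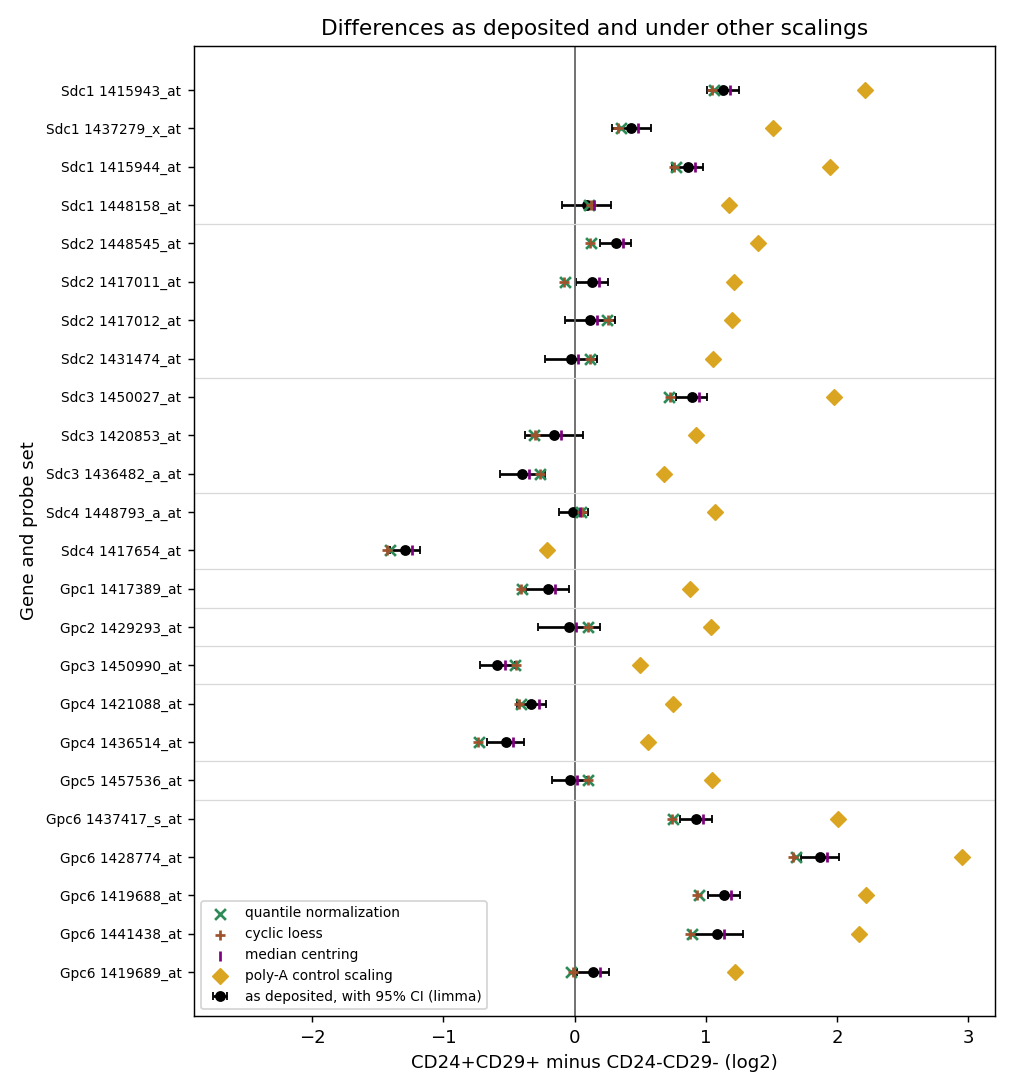
Difference CD24+CD29+ minus CD24-CD29- (log2, horizontal axis) for each member probe set (rows), as deposited with its 95% confidence interval from limma (circles with bars) and under 4 other scalings (other symbols). Sdc1 and the 4 larger Gpc6 differences stay above 0 in each, the Sdc4 probe set 1417654_at stays below 0 in each, and poly-A scaling makes the other negative differences positive.

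Gpc6 had the largest rise of the glypicans, and its 5 probe sets all passed as higher. The probe set 1428774_at stood at 9.95, 9.97 and 9.92 in CD24+CD29+ cells, against 8.20, 8.00 and 8.04 in CD24-CD29- cells, a 3.65-fold difference (log2 1.87, SE 0.06, adjusted p = 1.8e-07). The brightest, 1437417_s_at, stood at 10.13, 10.17 and 10.10, against 9.26, 9.24 and 9.13 in CD24-CD29- cells (0.93, SE 0.05, adjusted p = 2.4e-06). The groups were well separated on both. On 1419688_at and 1441438_at the difference was 1.14 and 1.08. The fifth, 1419689_at, passed narrowly at 0.14 (SE 0.05, adjusted p = 0.049). That last call was lost on leaving out any array but replicate 1 of CD24+CD29+ (0.10 without replicate 2 of CD24+CD29+, adjusted p = 0.15) and with an intensity trend (adjusted p = 0.072), and its value was -0.025 after quantile normalization and -0.013 after cyclic loess.

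Gpc4, a glypican that modulates Wnt and fibroblast growth factor signalling, was lower on both of its probe sets. On 1421088_at it stood at 11.02, 11.00 and 11.07 in CD24+CD29+ cells, against 11.38, 11.34 and 11.36 in CD24-CD29- cells (-0.33, SE 0.05, adjusted p = 0.00044). On 1436514_at it stood at 8.42, 8.36 and 8.45, against 8.96, 9.00 and 8.84 in CD24-CD29- cells (-0.53, SE 0.06, adjusted p = 9.6e-05). Neither probe set overlapped between groups, and both differences became positive with poly-A scaling, at 0.75 and 0.56. Set against Gpc6 within each array (1437417_s_at minus 1421088_at, also chosen after the values were seen), the gap differed by 1.26 between the groups, or 1.16 after quantile normalization.

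Gpc3, an inhibitor of Hedgehog signalling whose loss causes overgrowth, had 1 probe set. It stood at 5.35, 5.49 and 5.36 in CD24+CD29+ cells, against 5.94, 5.98 and 6.05 in CD24-CD29- cells (-0.59, SE 0.06, adjusted p = 4.6e-05). The groups did not overlap, but all 6 values lay below the median of their array. Of all probe sets with a mean of 5 to 6, 47.1% fell and 11.8% rose, with a median difference of -0.17, so the sign of Gpc3 is the common one at its level, and with poly-A scaling it was 0.49. In the RefSeq gene table Gpc3 and Gpc4 are neighbours on the X chromosome, and Gpc5 and Gpc6 are neighbours on chromosome 14. The pair on the X chromosome shared a direction, whereas Gpc5 did not pass and Gpc6 rose.

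Gpc1, the glypican found in most tissues, stood at 8.11 ± 0.11 in CD24+CD29+ cells and 8.32 ± 0.09 in CD24-CD29- cells (SD, n = 3 each). The groups overlapped, and the difference of -0.21 (SE 0.07, adjusted p = 0.033) passed narrowly. It was larger after quantile normalization and cyclic loess, at -0.40 and -0.41. The call was lost after median centring (-0.15, adjusted p = 0.10) and on leaving out 1 of 4 arrays in turn, with values of -0.16 and -0.19 without replicate 2 and 3 of CD24+CD29+ and -0.18 without replicate 1 or 2 of CD24-CD29-. Gpc2 and Gpc5, each read by 1 probe set with a mean of 5.61 and 5.62, did not pass, at -0.04 (95% confidence interval -0.28 to 0.20) and -0.04 (-0.17 to 0.09). These intervals bound the differences that the arrays leave possible. The files hold no detection calls, so neither gene was called absent.

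**Figure D3:**
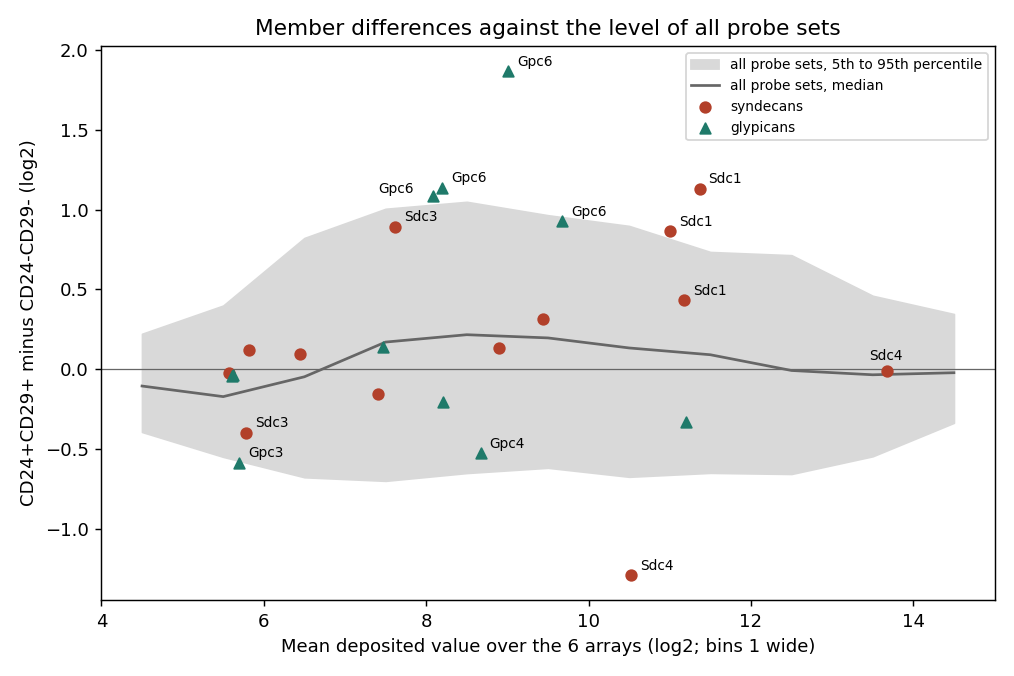
Difference CD24+CD29+ minus CD24-CD29- (log2, vertical axis) against the mean value over the 6 arrays (log2, horizontal axis) for syndecan probe sets (circles) and glypican probe sets (triangles), with the median and the 5th to 95th percentile of all probe sets in level bins of width 1. Gpc6, at 1.87, lies highest, Sdc4, at -1.29, lies lowest, and the second Sdc4 probe set, at -0.01, lies at the bright end where the band is narrow.

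Read by the brightest suitable probe set of each gene, 4 members rose (Sdc1, Sdc2, Sdc3 and Gpc6), 3 fell (Gpc1, Gpc3 and Gpc4) and 3 did not pass (Sdc4, Gpc2 and Gpc5). Over all 18193 genes 33.4% rose and 35.5% fell. By this reading Sdc1 had the largest rise and Gpc3 the largest fall. The genes closest to Sdc1 in their mean-centred values over the 6 arrays were Ralgds, Junb and Ccna2 (Euclidean distance 0.05, 0.06 and 0.06), and those closest to Gpc3 were 4930442J19Rik, Ssbp1 and Golga7b (0.05, 0.06 and 0.06). With 2 groups such likeness mostly reflects a difference of similar size.

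Among the enzymes that build the chains on these proteins, rises were more common than falls. The list of linker sugars and chain polymerisation had 13 measured genes, of which 9 rose and 2 fell. Its median difference was 0.42, against -0.04 over all genes. The median level of the list was 9.38, and probe sets with a mean of 9 to 10 had a median difference of 0.20, with 54.2% higher and 23.3% lower. Ext1 and Ext2, which together form the heparan sulfate polymerase, both rose on their main probe sets. Ext1 stood at 11.43, 11.32 and 11.38 in CD24+CD29+ cells, against 10.21, 10.19 and 10.19 in CD24-CD29- cells (log2 1.18, SE 0.05, adjusted p = 5.9e-07, 2.27-fold). Ext2 differed by 0.96, with 1 of its other probe sets past the threshold in the opposite direction. B3gat3 (1.17), which adds the last sugar of the linker, had its only other probe set past the threshold as lower. Over the alternatives other than poly-A scaling, Ext2 ran from 0.12 to 1.02 (limma adjusted p at most 0.049) and B3gat3 from 0.47 to 1.22. The lower genes were Uxs1 (-0.30) and the dim B4galt7 (-0.17), which make a sugar donor and add a linker sugar. Uxs1 had 1 other probe set past the threshold as higher, and the mean of its probe sets differed by -0.0082 (adjusted p = 0.90). The call of B4galt7 was lost after quantile normalization, cyclic loess (-0.071, adjusted p = 0.34) and median centring.

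The enzymes that sulfate and trim the chains went both ways. There were 8 rises and 9 falls among 20 genes (median -0.07). Of probe sets with a mean of 7 to 8, where the median level of this list (7.67) lies, 49.3% were higher and 23.9% lower. However, 6 of the 20 genes lay below the median level of all probe sets. In the level bins between 4 and 7, 33.5% to 47.1% of probe sets were lower and 7.14% to 30.6% higher. Sulf1, a secreted sulfatase that removes 6-O-sulfate groups from finished chains, had the largest rise. It stood at 7.45, 7.15 and 7.12 in CD24+CD29+ cells, against 5.51, 5.66 and 5.45 in CD24-CD29- cells (log2 1.70, SE 0.10, adjusted p = 1.9e-06, 3.24-fold), and its other probe sets gave 1.64 and -0.25. Its relative Sulf2 was lower on the probe set 1442408_at, at 10.09, 10.09 and 10.08 in CD24+CD29+ cells against 11.02, 11.02 and 11.05 in CD24-CD29- cells (-0.94, SE 0.05). Its other probe sets, however, were higher by 0.33 and 0.34, so the direction of Sulf2 is not settled by these arrays. Ndst2, which starts sulfation of the chain, was higher by 1.26, and the 6-O-sulfotransferase gene Hs6st2 by 0.59. Hs3st4 and Ndst4, both dim, were lower, at -0.43 and -0.31.

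Chain degradation had 5 rises and 1 fall among 9 genes (median 0.31). Its median level was 7.67, and of probe sets with a mean of 7 to 8, 49.3% were higher and 23.9% lower. Hpse, which encodes heparanase, the enzyme that cuts the chains outside the cell, was higher, at 7.22, 7.12 and 7.17 in CD24+CD29+ cells against 6.34, 6.19 and 6.25 in CD24-CD29- cells (0.91, SE 0.06, adjusted p = 3.9e-06). The lysosomal enzyme genes Naglu and Gusb were higher by 0.85 and 0.79, and Arsg was lower, at -0.70.

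Genes that shed or process the core proteins included several rises. There were 7 rises and 4 falls among 13 genes (median 0.35). Of probe sets with a mean of 9 to 10, where the median level of this list (9.37) lies, 54.2% were higher and 23.3% lower. The metalloprotease genes Mmp2 and Mmp14 were 2.75-fold and 2.20-fold higher, and Timp3, an inhibitor of such proteases and of syndecan shedding, was 2.69-fold higher. Mmp7, Pcsk6 and Pcsk7 were lower, at -0.58, -0.53 and -0.42, and the dim Notum, which encodes a secreted hydrolase that inactivates Wnt proteins, was higher by 0.41. The proteases thus went both ways.

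Genes of proteins that bind or act on the syndecan tail showed 7 rises and 5 falls among 15 (median 0.11), none of them by 2-fold. The median level of this list was 10.48, and of probe sets with a mean of 10 to 11, 50.4% were higher and 25.96% lower. Actn1, Tiam1 and Gipc1, which encode an actin crosslinker, a Rac activator and an adaptor, were higher by 0.89, 0.80 and 0.60. Sdcbp, the gene of syntenin, which binds the end of the syndecan tail, did not pass on its main probe set (0.11, adjusted p = 0.061). That probe set passed after quantile normalization, cyclic loess and median centring. It also passed with an intensity trend, without the dimmest 40% of probe sets and with main probe sets only. The other probe sets of Sdcbp passed at 0.35 and -0.53. Its relative Sdcbp2, with Dnm2 and Src, was lower, at -0.38, -0.28 and -0.22. Of the other probe sets, 2 of Dnm2 and the only one of Src passed the threshold as higher.

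Other proteoglycan core proteins gave 8 rises and 5 falls among 14 genes (median 0.38). Their median level was 8.94, and of probe sets with a mean of 8 to 9, 54.4% were higher and 20.6% lower. Dcn, Nrp1 and Vcan were higher by 1.15, 1.14 and 1.06, Vcan with 2 of its other probe sets past the threshold in the opposite direction. Tgfbr3, the gene of betaglycan, Hspg2, the gene of perlecan, and the dim Spock1 were lower, at -0.86, -0.61 and -0.53. The only other probe set of Hspg2 passed as higher, and the mean of both differed by 0.093 and did not pass. The direction of Hspg2 is thus not settled by these arrays. Ligands that bind heparan sulfate gave 8 rises and 10 falls among 22 genes (median -0.12). Their median level was 7.82, and of probe sets with a mean of 7 to 8, 49.3% were higher and 23.9% lower. However, 7 of the 22 genes lay below the median level of all probe sets. In the level bins between 4 and 7, 33.5% to 47.1% of probe sets were lower and 7.14% to 30.6% higher. The matrix genes Tnc and Thbs1 and the growth factor gene Bmp7 were higher by 1.71, 0.99 and 1.18. In contrast, the bright Hbegf and the dim Ihh and Wnt5a (means of 6.03 and 5.61) were lower, at -0.53, -0.49 and -0.36. Receptors gave 9 rises and 3 falls among 16 genes (median 0.19). Probe sets with a mean of 10 to 11, where the median level of the receptors (10.47) lies, were higher for 50.4% and lower for 25.96%. Lrp1, Robo1 and Itgb1, the gene of the sort protein CD29, were higher by 1.09, 0.94 and 0.87. Robo1 and Itgb1 each had 1 other probe set of opposite sign. Itgb3, whose protein Sdc1 engages in complex with the alpha-v chain, Ptch1 and the dim Fgfr4 were lower, at -0.76, -0.17 and -0.53. Median centring took the call from Ptch1. Spock1, Wnt5a and Fgfr4 had a mean of 5 to 6, where 47.1% of all probe sets were lower and 11.8% higher. Together the 8 lists held 122 measured genes, of which 61 rose and 39 fell, or 122 and 0 with poly-A scaling. The 50% that rose stand against 33.4% of all genes. In the level bins between 7 and 11, where the median levels of the lists lie, 49.3% to 54.4% of probe sets were higher. The share of rises is thus near the background at that level. The 31.97% that fell stand against 35.5% of all genes and 20.6% to 25.96% of probe sets in those bins. The share of falls is thus above that of these bins and below that of all genes. Some genes of the lists lie between 4 and 7, where 33.5% to 47.1% of probe sets were lower.

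**Figure D4:**
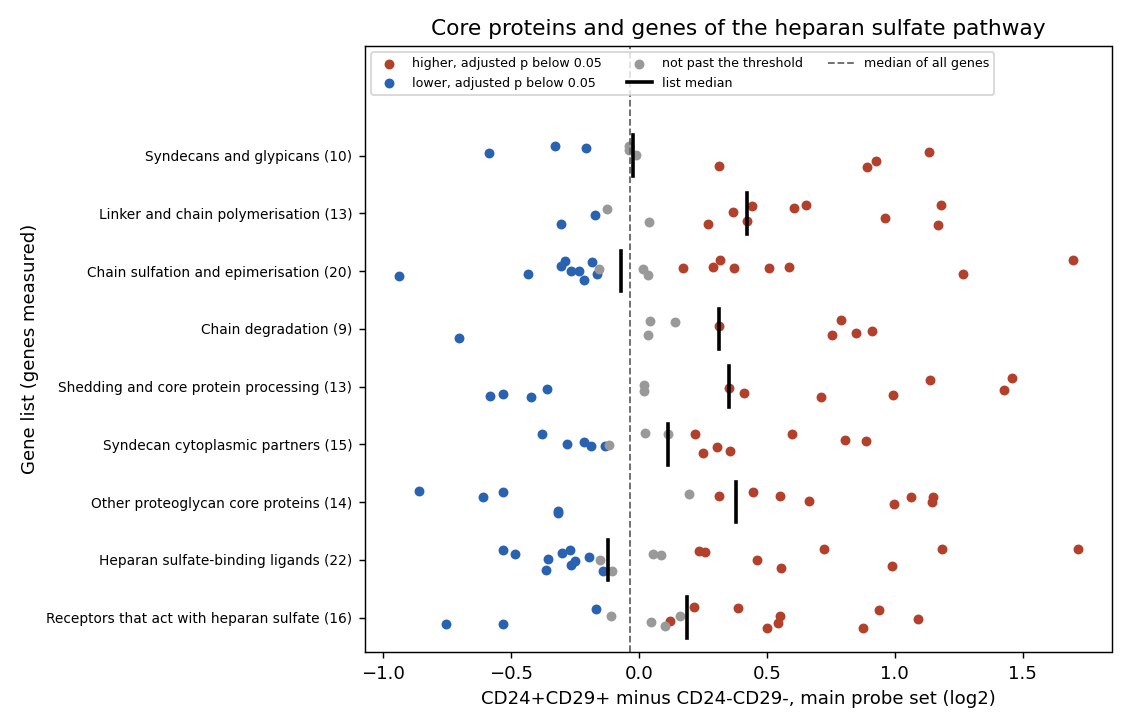
Difference CD24+CD29+ minus CD24-CD29- (log2, horizontal axis) of each gene on its main probe set, for the members and the 8 pathway lists (rows, with the number of genes measured). Colour gives the call at an adjusted p of 0.05, thick bars are list medians and the dashed line is the median of all genes, -0.04. The list of linker and polymerisation genes has its median at 0.42, and the members themselves at -0.02.

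Markers of other cell types were read on the same arrays, where 33.4% of all 18193 genes rose and 35.5% fell. Epcam, an epithelial marker, stood at 14.11 in CD24+CD29+ cells and 14.13 in CD24-CD29- cells, and of 8 mammary epithelial markers 3 rose and 3 fell. Those that rose with Sdc1 and Gpc6 were the basal cell genes Krt14 (0.99), Trp63 (0.80) and Krt5 (0.65), and those that fell were the luminal cell genes Elf5 (-0.97), Krt18 (-0.42) and Krt8 (-0.17). Their part in the member differences was not tested. All 8 fibroblast markers rose with Sdc1 and Gpc6 (median 0.92). Their summed log2 level was 73.5 to 74.0 on CD24+CD29+ arrays and 65.1 to 65.6 on CD24-CD29- arrays. Of probe sets with a mean of 8 to 9, where their median level (8.69) lies, 54.4% were higher and 20.6% lower. The part of the fibroblast markers in these results was not tested. Sdc1 also marks plasma cells, and 5 of 6 plasma cell and B cell markers lay below the median level. The exception was Pou2af1, at 8.97 in CD24+CD29+ cells and 8.61 in CD24-CD29- cells, which was the one that rose (0.36, adjusted p = 0.00025), and its part was not tested. Jchain stood at 4.68 in CD24+CD29+ cells and 4.86 in CD24-CD29- cells, below the lower quartile of every array, and of 6 plasma cell and B cell markers 1 rose and 3 fell (summed level 34.3 to 34.9 on CD24+CD29+ arrays and 35.4 to 35.8 on CD24-CD29- arrays). Of 8 other leukocyte markers (median level 6.02) 6 fell and 0 rose. Ptprc, at 4.85 in CD24+CD29+ cells and 4.94 in CD24-CD29- cells, did not pass. Those that fell included the bright Cd14, at 12.50 and 12.78, and Csf1r, at 6.75 and 7.63. Of probe sets with a mean of 6 to 7, 30.6% were higher and 37.7% lower. Of 8 endothelial markers (median level 5.22) 3 rose and 1 fell. At a mean of 5 to 6, also the median level of plasma cell and B cell markers (5.38), 11.8% were higher and 47.1% lower. In these sorted bulk samples, fewer cells of a type and less RNA per cell cannot be told apart. No marker is listed at 0 on this scale. Over probe sets, which are not independent, r was 0.997 to 0.998 within groups and 0.974 to 0.979 between them.

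The directions above are relative to the other genes on the array. The 24 probe sets of the poly-A control RNAs were lower on CD24+CD29+ arrays (median difference -1.17), and scaling to their mean adds 1.08 to every difference. On that scale 23 of the 24 member probe sets were higher and 1 lower, where 98.5% of all probe sets were higher and 0.657% lower. The lower one, Sdc4 1417654_at, stood at -0.21 (SE 0.05, adjusted p = 0.0031). Relative to that shift each difference is the one given above.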

How the data were processed

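The values analysed were deposited log2 values of 6 Affymetrix Mouse430_2 arrays, which the authors made with RMA and Partek, per the submitters' processing notes. No source used here gives versions, settings or order. Names came from the platform annotation, which may be outdated: 34945 had 1 symbol, 932 several and 9160 none. A further 64 control probe sets were left out of the fit. The other 45037 were fitted with limma 3.58.1 (R 4.3.3; lmFit, eBayes, no covariate), which was tested on simulated data. A gene's main probe set is its brightest on average, without those ending in _x_at where it has another. Named are all members, up to 3 of the largest rises and falls of each pathway list, Sdcbp, Notum, Hpse, Sulf1, Sulf2 and Itgb1, and the 3 genes nearest in pattern to the members with the largest rise and fall. Other genes are named as markers, and 3 pairs of probe sets were compared within arrays. The members, lists and tests were chosen with earlier results of these data known. Alternatives were quantile normalization, cyclic loess, median centring, scaling to the poly-A controls, a filter on the dimmest 40% of probe sets, 1 value per gene, an intensity trend, the replicate number as a block, an exact permutation test and leaving out each array. Of 127 pathway genes listed, 122 were measured, and the rest were not analysed here. The number of arrays limits the precision (median SE 0.07).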

Additional observations from a re-analysis of the deposited data

How the results depend on the processing

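Poly-A scaling adds the same amount to every difference, and under it 23 member probe sets passed as higher and 1 as lower, where 10 and 6 did as deposited. By limma, 10 member genes were higher on their main probe set and 0 lower, where 4 and 3 were as deposited, and 122 pathway genes were higher and 0 lower, where 61 and 39 were. No such value was negative, so the count at an unadjusted p under 0.05 is 0 too. By that construction Sdc2 1431474_at (1.06), Sdc3 1420853_at (0.93), Sdc3 1436482_a_at (0.68), Sdc4 1448793_a_at (1.07), Gpc1 1417389_at (0.88), Gpc2 1429293_at (1.04), Gpc3 1450990_at (0.49), Gpc4 1421088_at (0.75), Gpc4 1436514_at (0.56) and Gpc5 1457536_at (1.04) turned positive among the members, and B4galt7 (0.91), Uxs1 (0.78), Ndst4 (0.78), Sulf2 (0.14), Hs3st4 (0.65), Arsg (0.38), Pcsk7 (0.66), Pcsk6 (0.55), Mmp7 (0.50), Sdcbp2 (0.70), Dnm2 (0.80), Src (0.87), Hspg2 (0.47), Spock1 (0.55), Tgfbr3 (0.22), Hbegf (0.55), Wnt5a (0.72), Ihh (0.60), Fgfr4 (0.55), Ptch1 (0.91) and Itgb3 (0.33) among the pathway genes. Gpc6 1419689_at turned to -0.025 after quantile normalization and -0.013 after cyclic loess, and on averaging the probe sets of each gene Dnm2 (0.049), Src (0.087) and Hspg2 (0.093) turned positive and did not pass. The cause was not tested. Over the other settings the member probe sets that passed numbered 9 to 11 higher and 4 to 7 lower. Leaving out 1 array at a time gave 9 to 10 higher and 5 to 6 lower.

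The replicate numbers of the titles did not pair the arrays: the deviations of same-numbered arrays from their group means correlated at 0.20, -0.04 and 0.05. With the replicate number as a block 9 member probe sets were higher and 7 lower, as Gpc6 1419689_at did not pass (adjusted p = 0.061) and Sdc3 1420853_at passed as lower (adjusted p = 0.038), with 60 and 36 pathway genes. Over arrays alone, an exact permutation test of 3 against 3 cannot go below p = 0.1, 2-sided. With no detection calls, the limits of dim probe sets (Gpc2, Gpc3, Gpc5) are not known.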
